A study of Mus musculus with 8 samples.

Results

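Ovarian granulosa cells, which line the follicle and nurse the oocyte, were examined here for 10 antioxidant enzymes in the mouse. The enzymes were chosen by gene symbol, Sod1, Sod2, Cat, Gpx1, Gpx3, Gpx4, Prdx1, Prdx3, Gclc and Gclm, and all 10 were found among the 23235 symbols of the expression table. RNA was measured in 8 libraries of total RNA from female C57BL/6 mice, in 4 groups of 2. The groups were CNOT6/6L knockout (KO) 44 h after PMSG, wild type (WT) 44 h after PMSG, untreated KO (0 h) and untreated WT (0 h). PMSG is a gonadotropin with FSH-like activity that drives follicle growth. CNOT6 and CNOT6L are deadenylase subunits of the CCR4-NOT complex, which shortens the poly(A) tails of mRNA. The labels gave no age, PMSG dose, knockout allele or Cre driver. Whether the 2 libraries of a group came from different animals was not stated, so each p-value reflects the scatter between libraries, and that scatter may be technical.

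Cells that respire and make steroids form superoxide as a by-product. Superoxide dismutases turn it into hydrogen peroxide, SOD1 mainly in the cytosol and SOD2 in the mitochondrial matrix. Hydrogen peroxide is then removed by catalase in peroxisomes, by peroxiredoxins, which are recharged by thioredoxin, and by glutathione peroxidases, which use glutathione. Glutamate-cysteine ligase, made of the catalytic subunit GCLC and the modifier subunit GCLM, carries out the rate-limiting step of glutathione synthesis. In granulosa cells, cholesterol is cut to pregnenolone inside mitochondria by CYP11A1, whose electron supply is a known source of reactive oxygen.

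GPX1 (cytosol and mitochondria), GPX3 (secreted) and GPX4 (reduces lipid peroxides in membranes) carry selenocysteine in the active site. Their mRNAs encode it with an in-frame TGA, a codon that otherwise ends translation. The coding sequence around that codon is shown because, among the 10 enzymes, these 3 are the selenoproteins. The codon is in capitals, with 21 bases on each side, from GENCODE M21 transcripts on the GRCm38 build, 5′ to 3′ on the coding strand. It is codon 73 of the 226 codons of Gpx3 on chromosome 11. In Gpx1, on chromosome 9, it is codon 47 of 201 in 1 of 3 annotated coding transcripts, and the other 2 held 0 in-frame TGA codons before their stop. In Gpx4, on chromosome 10, it is codon 129, 73 or 33, depending on which of the 3 annotated coding transcripts is read.
Gpx1: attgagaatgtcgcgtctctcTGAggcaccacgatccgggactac
Gpx3: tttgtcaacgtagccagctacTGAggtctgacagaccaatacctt
Gpx4: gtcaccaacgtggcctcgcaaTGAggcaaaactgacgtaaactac
The annotated coding transcripts of Gpx5, Gpx6, Gpx7 and Gpx8 held 0 in-frame TGA codons before their stop.

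Levels are given in FPKM, the authors' unit of fragments scaled to transcript length and library size, so they can be set side by side between genes. The 10 enzymes spanned a wide range. Averaged over the 8 libraries, Prdx1, a cytosolic peroxiredoxin, stood at 1015 ± 184 FPKM (SD, n = 8), rank 68 of the 13688 genes tested. Sod1 followed at 864 ± 173 FPKM and Gpx4 at 639 ± 126 FPKM. Gpx3 averaged 459.7 ± 149.9 FPKM and Gpx1 averaged 320.0 ± 44.3 FPKM. From Prdx1 down to Gpx1, the ranges of neighbours in this order overlapped. Prdx3, the mitochondrial peroxiredoxin, averaged 114 ± 28.2 FPKM, with every library below every library of Gpx1. Gclm (52.8 ± 9.72 FPKM), Cat (51.8 ± 5.92 FPKM) and Sod2 (36.3 ± 4.90 FPKM) formed a lower group in which the ranges of neighbours again overlapped. Gclc was lowest at 6.46 ± 1.81 FPKM, rank 8182. The SD over 8 libraries includes differences between groups. Among the 10, Gpx3 varied most, its highest library being 3.40 times its lowest.

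**Figure D1:**
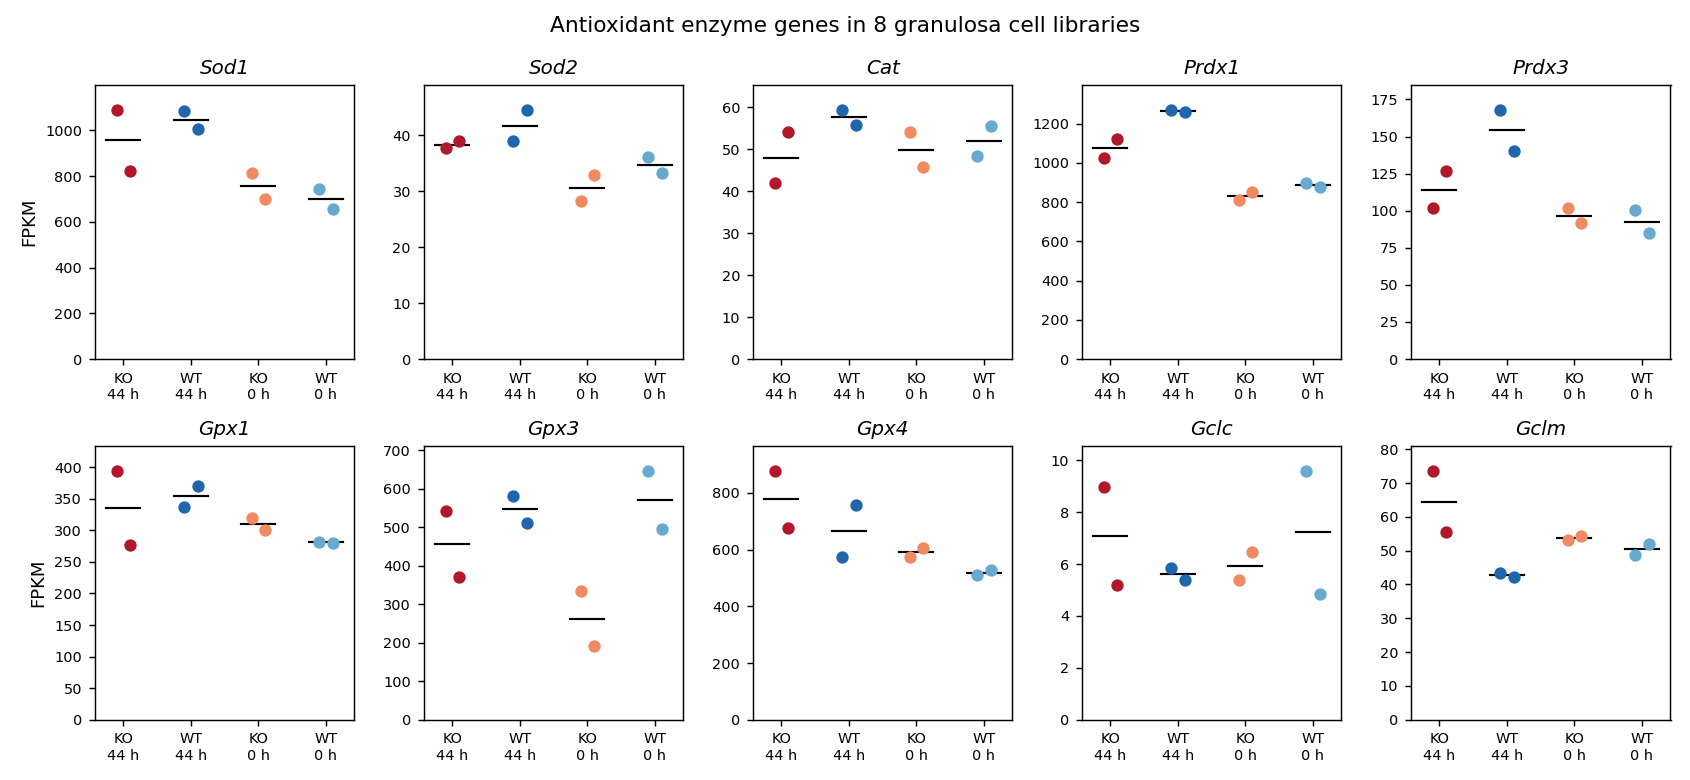
FPKM (y axis, from 0, a separate scale for each gene) of the 10 enzyme genes in the 8 libraries, with groups on the x axis from left to right KO 44 h, WT 44 h, KO 0 h and WT 0 h. Points are libraries (2 per group) and lines are group means. Prdx1, Prdx3, Sod1 and Sod2 lie higher in each of the 4 libraries at 44 h than in each of the 4 at 0 h, and Gpx3 is lowest in the KO 0 h libraries, at 334 and 191 FPKM.

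The libraries were not equally close. Relative depth, read from the steps between low FPKM values, was 0.903 to 1.25 times that of the median library. The KO libraries at 44 h were at least 2-fold apart in 1527 of the genes tested, against 382 in WT at 44 h, 432 in KO at 0 h and 317 in WT at 0 h. The library labelled KO replicate 1 at 44 h stood apart in the 8 luteal markers, which summed to 2746 FPKM there and to 10737 FPKM in replicate 2, against 11194 and 13460 FPKM in WT at 44 h. Cnot6 was also at the WT level in that library, at 26.7 FPKM, and 17.4 FPKM in replicate 2, against 26.0 and 26.9 FPKM in the WT libraries of that time. At 0 h Cnot6 was 11.7 and 12.01 FPKM in KO, against 29.1 and 18.4 FPKM in WT. Cnot6l was 2.01 and 1.61 FPKM in KO at 44 h, against 4.20 and 2.63 FPKM in WT. At 0 h it was 4.69 and 1.97 FPKM in KO, against 6.11 and 7.07 FPKM in WT. Neither gene was at 0 in a KO library. All 8 granulosa markers were above 0 in every library, with sums of 9474 to 25371 FPKM. The 10 oocyte markers were above 0 in every library too.

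The change over 44 h of PMSG was tested first with the genotypes averaged, which sets 4 libraries at 44 h against 4 at 0 h. Both peroxiredoxins among the 10 rose, Prdx1 1.36-fold and Prdx3 1.39-fold. No other member passed the test. Differences are in log2(FPKM + 1), with standard errors (SE) and Benjamini-Hochberg adjusted p from limma over 13688 genes. Limma called 2 of the 10 members higher and 0 lower at an adjusted p under 0.05. Of all genes tested, 5.06% were called higher and 12.4% lower. An unadjusted p under 0.05 was found for 5 of the 10 and for 36.1% of all genes. In 4 of the 10 (Prdx1, Prdx3, Sod1 and Sod2), every library at 44 h lay above every library at 0 h, which held for 5.98% of all genes, and in 0 of the 10 below, which held for 13.3%. The median difference was 0.33 over the members and -0.12 over all genes. Median-of-ratios scaling moved these medians to 0.47 and 0.0076. It also moved the split of all calls to 926 higher and 885 lower, where the FPKM as deposited gave 693 higher and 1703 lower. The 10 members together made up 0.557% and 0.518% of the FPKM sum in KO and 0.587% and 0.561% in WT at 44 h, against 0.458% and 0.423% in KO and 0.467% and 0.447% in WT at 0 h. These are bulk libraries, in which fewer cells of a type and less RNA per cell cannot be told apart.

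Prdx1, which reduces hydrogen peroxide in the cytosol, was 1027 and 1122 FPKM in KO and 1270.2 and 1259 FPKM in WT at 44 h. At 0 h it was 811 and 854 FPKM in KO and 896 and 878 FPKM in WT. The lowest library at 44 h, KO replicate 1, was thus above the highest at 0 h, WT replicate 1. The difference was 0.44 (SE 0.109, limma adjusted p = 0.0381). Prdx3, which does the same inside mitochondria, was 101.55 and 126 FPKM in KO and 168 and 140.3 FPKM in WT at 44 h. At 0 h it was 101.50 and 91.9 FPKM in KO and 100.4 and 85.0 FPKM in WT. The groups barely separated, because KO replicate 1 at 44 h and KO replicate 1 at 0 h were nearly equal. The difference was 0.48 (SE 0.127, limma adjusted p = 0.0445).

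Both calls held when the library labelled KO replicate 1 at 44 h was left out, with differences of 0.47 for Prdx1 and 0.56 for Prdx3 (limma adjusted p = 0.0151 and 0.0190), a fit that called 27.9% of all genes. They ended without any other library (Prdx1 0.42 to 0.46, Prdx3 0.40 to 0.54), except that Prdx1 kept its call without KO replicate 2 at 44 h (0.41), and also with no filter on low values, with quantile normalization (0.25 and 0.45) and with a replicate block.

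Sod1, the cytosolic superoxide dismutase, was 1089 and 823 FPKM in KO and 1085 and 1006 FPKM in WT at 44 h. At 0 h it was 814 and 699 FPKM in KO and 742 and 657 FPKM in WT. All 4 libraries at 44 h were higher than all 4 at 0 h. The difference of 0.45 (SE 0.140) did not pass, with a limma adjusted p of 0.0649. It did with median-of-ratios scaling (0.60, limma adjusted p = 0.0473). Without KO replicate 2 at 44 h, which leaves a lone KO library of that time, the difference was 0.56. Sod2, the mitochondrial enzyme, was 37.6 and 38.9 FPKM in KO and 38.9 and 44.5 FPKM in WT at 44 h. At 0 h it was 28.3 and 32.9 FPKM in KO and 36.1 and 33.3 FPKM in WT. Its groups did not overlap either, and its difference of 0.29 (SE 0.109, limma adjusted p = 0.107) did not pass.

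Cat, the peroxisomal catalase, showed no separation by time. It was 41.8 and 54.0 FPKM in KO and 59.4 and 55.8 FPKM in WT at 44 h, against 54.1 and 45.7 FPKM in KO and 48.4 and 55.4 FPKM in WT at 0 h. The difference was 0.044 (SE 0.127, limma adjusted p = 0.830).

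None of the 3 selenocysteine peroxidases passed the test. Gpx4 was 879 and 675 FPKM in KO and 576 and 758 FPKM in WT at 44 h, against 576 and 607 FPKM in KO and 509 and 528 FPKM in WT at 0 h. Only WT replicate 1 at 44 h lay inside the range of the 0 h libraries, and the difference was 0.36 (SE 0.144, limma adjusted p = 0.118). Gpx1 was 395 and 277 FPKM in KO and 337 and 371 FPKM in WT at 44 h, against 319 and 300.0 FPKM in KO and 282 and 279.8 FPKM in WT at 0 h. KO replicate 2 at 44 h was the lowest of all 8, and the difference was 0.21 (SE 0.136, limma adjusted p = 0.297). Gpx3 was 542 and 372 FPKM in KO and 583 and 513 FPKM in WT at 44 h, against 334 and 191 FPKM in KO and 647 and 497 FPKM in WT at 0 h. The 0 h libraries spanned both its lowest and its highest value, and the averaged difference was 0.39 (SE 0.220, limma adjusted p = 0.246).

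Neither subunit of glutamate-cysteine ligase separated by time. Gclm was 73.7 and 55.4 FPKM in KO and 43.3 and 42.3 FPKM in WT at 44 h, against 53.0 and 54.3 FPKM in KO and 48.8 and 52.0 FPKM in WT at 0 h. The 44 h libraries thus lay above the 0 h libraries in KO and below them in WT, and the averaged difference was 0.0090 (SE 0.119, limma adjusted p = 0.966). Gclc was 8.96 and 5.20 FPKM in KO and 5.86 and 5.37 FPKM in WT at 44 h, against 5.37 and 6.47 FPKM in KO and 9.60 and 4.84 FPKM in WT at 0 h. Within a single group it varied by as much as between groups, and the difference was -0.031 (SE 0.242, limma adjusted p = 0.940).

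**Figure D2:**
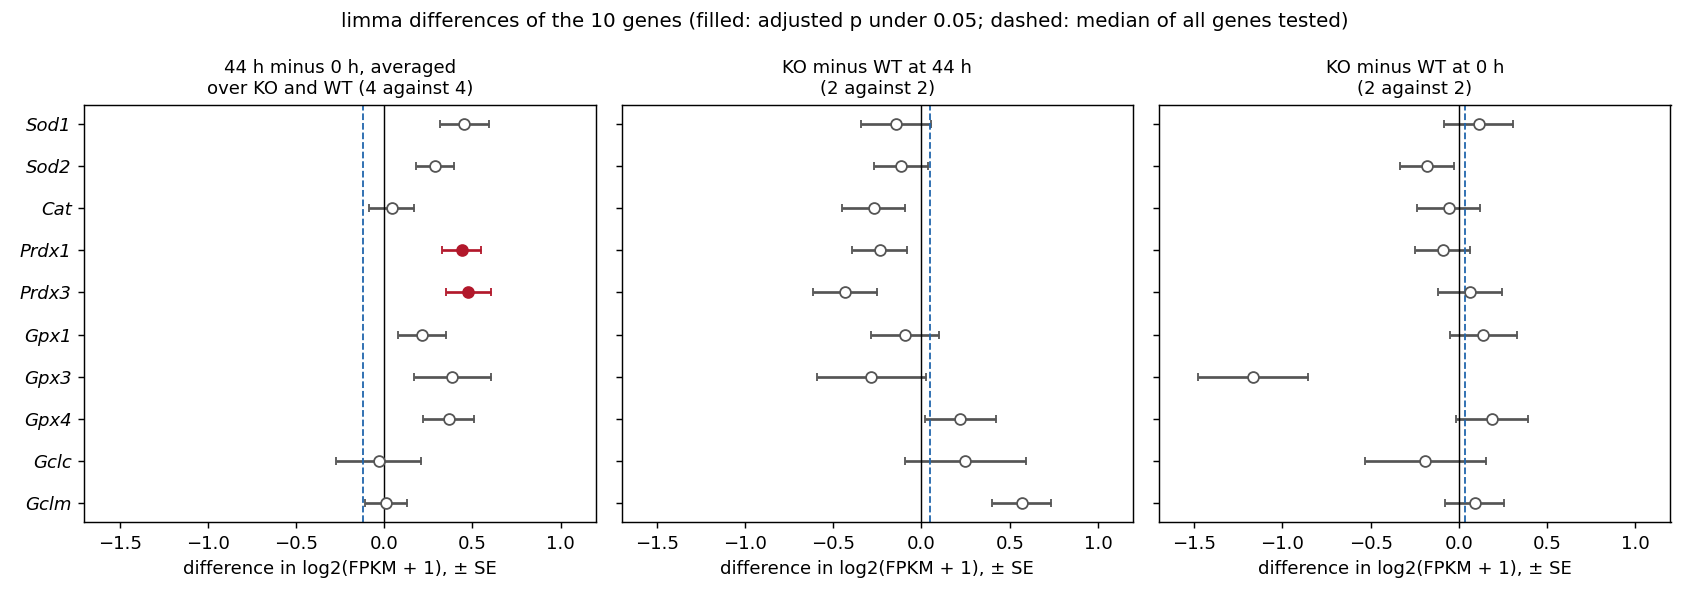
Differences in log2(FPKM + 1) with standard errors (x axis) for the 10 genes (y axis) in 3 comparisons, from left to right 44 h minus 0 h averaged over genotypes, KO minus WT at 44 h and KO minus WT at 0 h. Filled points passed the limma test and dashed lines mark the median of all genes tested. Prdx1 (0.44) and Prdx3 (0.48) are filled in the panel on the left, and Gpx3 at 0 h (-1.17) is the farthest from 0.

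Within WT alone, 0 of the 10 members were called, against 0.0804% of all genes, and 3 of 10 had an unadjusted p under 0.05 in limma, against 24.1%. In 7 members both 44 h libraries lay above both 0 h libraries, and in 1, Gclm, both lay below. Over all genes these shares were 22.5% and 40.6%. The differences were 0.73 for Prdx3 (SE 0.180, limma adjusted p = 0.108), 0.58 for Sod1 (SE 0.198, adjusted p = 0.147) and 0.51 for Prdx1 (SE 0.155, adjusted p = 0.126). With the spread taken from the 4 WT libraries alone, 6.90% of all genes were called and again 0 members, with limma adjusted p of 0.0540 for Prdx3, 0.0726 for Sod1 and 0.0830 for Prdx1. The members' median was 0.29 and that of all genes -0.13. Without either KO library at 44 h, whose values enter only through the spread, the WT differences of Prdx1 and Prdx3 stayed the same. Their SE fell to 0.12 and 0.15, a change in the spread and not in the WT values.

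Within KO alone, 0 members were called, against 0.139% of all genes, and 2 of 10 had an unadjusted p under 0.05 in limma, against 21.1%. In 7 members both 44 h libraries lay above both 0 h libraries and in 0 below, against 14.3% and 34.1% of all genes. Gpx3 had a difference of 0.83 (SE 0.311, limma adjusted p = 0.193) and Prdx1 of 0.37 (SE 0.155, adjusted p = 0.235). The other 8 lay between -0.063 for Cat and 0.38 for Gpx4. The KO libraries at 44 h differed from each other in which enzymes were higher. Against the KO 0 h mean, replicate 1 stood at 0.53 for Sod1, 0.57 for Gpx4, 0.35 for Gpx1, 0.45 for Gclm and 0.53 for Gclc. Replicate 2 stood at 0.12, 0.19, -0.16, 0.045 and -0.15 for the same genes. For Prdx3 the order was the other way, with 0.071 in replicate 1 and 0.38 in replicate 2. Sod2 stood at 0.30 and 0.34. The members' median in KO was 0.28, and it was 0.16 without replicate 1 and 0.40 without replicate 2.

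**Figure D3:**
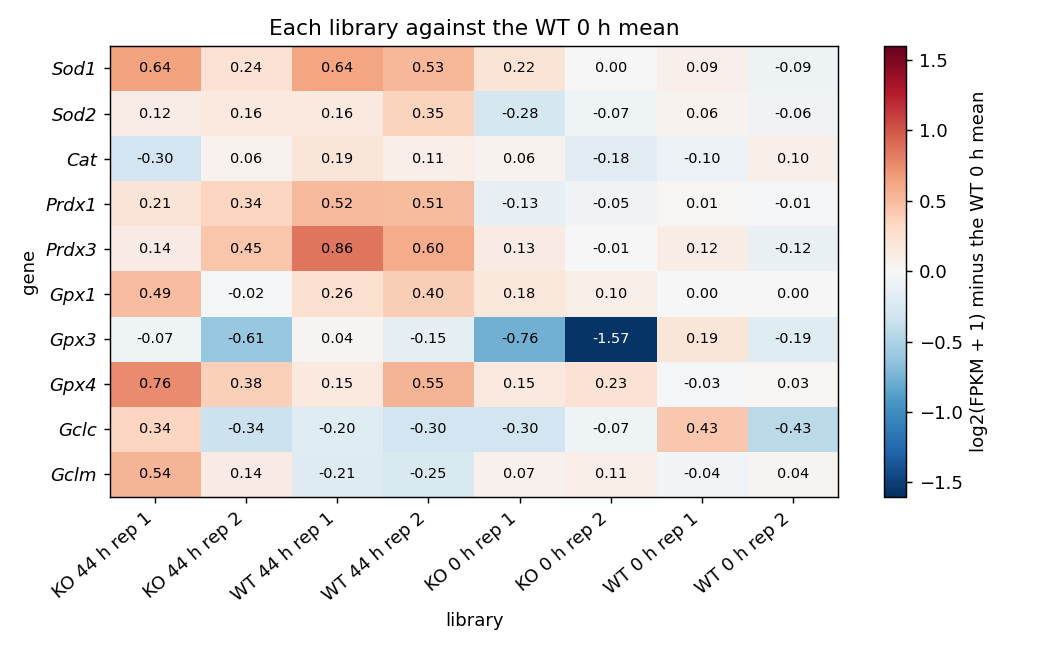
Difference in log2(FPKM + 1) of each library from the WT 0 h mean (colour and printed value, red higher and blue lower), with genes as rows by enzyme family and libraries as columns from KO 44 h on the left to WT 0 h on the right. Prdx1, Prdx3, Sod1, Sod2 and Gpx4 are above 0 in all 4 libraries at 44 h. Gpx3 is below 0 in both KO libraries at 0 h, and the KO libraries at 44 h differ from each other in Gclm and Gclc.

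Marker genes of granulosa and other cells moved with time as well. The 8 granulosa markers summed to 13716 to 25371 FPKM at 44 h and to 9474 to 11384 FPKM at 0 h. Limma called 5 of 8 higher and 1 lower. Most of each sum was Inha, at 10434 to 23238 FPKM at 44 h and 8434 to 10433 FPKM at 0 h. Amh went the other way, at 8.47 to 46.4 FPKM at 44 h and 61.6 to 104 FPKM at 0 h. The 8 luteal markers summed to 2746 to 13460 FPKM at 44 h and to 1227 to 2561 FPKM at 0 h, and 7 of 8 were called higher. The largest of them was Hsd3b1, at 2420 to 7851 FPKM at 44 h and 1133 to 2354 FPKM at 0 h. The 10 oocyte markers summed to 625 to 1559 FPKM at 44 h and to 1197 to 3419 FPKM at 0 h, and 10 of 10 were called lower. The 10 theca and stroma markers summed to 248 to 368 FPKM at 44 h and to 108 to 149 FPKM at 0 h, and 2 of 10 were called higher. The 8 endothelial markers summed to 25.5 to 47.5 FPKM at 44 h and to 17.9 to 27.0 FPKM at 0 h, and 2 of the 6 tested were called higher. No immune, erythroid, surface epithelium or oviduct marker was called. In bulk libraries a change in a marker's level per cell and a change in cell content cannot be told apart. The part of either in the enzyme values was not tested.

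A match to the NRF2 motif was found in the promoter window of 3 members, and those 3 stretches are shown. NRF2 is a transcription factor that raises many antioxidant genes under oxidative stress. Of the 4 members that lay higher at 44 h in every library, Prdx1 and Sod1 had a match, and Prdx3 and Sod2 had a window with 0 matches. The motif searched was TGACNNNGC on both strands, in RefSeq windows on GRCm38.p6 that run from 250 bases before to 50 after the start site. A window was found for 9 members, all but Gclc (12 windows), and 3 of the 9 members had a match, in 3 of the 12 windows. Of all 32851 windows, 12.4% had one. In the stretches below, the match is in capitals, on the minus strand in each case, with 45 bases on each side. The stretches end before the start site, which lies 124 bases past the match in Prdx1, 125 in Gclm and 47 in Sod1.
Prdx1 chr4:116685421-116685519 (+ strand): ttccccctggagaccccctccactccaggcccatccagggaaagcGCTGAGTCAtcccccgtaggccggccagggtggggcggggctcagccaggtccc
Sod1 chr16:90220661-90220759 (+ strand): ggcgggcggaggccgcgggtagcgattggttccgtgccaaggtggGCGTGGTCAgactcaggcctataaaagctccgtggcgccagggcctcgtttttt
Gclm chr3:122245378-122245476 (+ strand): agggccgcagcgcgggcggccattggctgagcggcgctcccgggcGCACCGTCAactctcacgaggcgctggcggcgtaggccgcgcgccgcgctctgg
The motif of the cAMP response element (TGACGTCA, in 1.79% of all windows) and that of SF-1 (CAAGGTCA, in 1.56%) had 0 matches in the 12 windows of the members. The GC box (GGGCGG, in 35.7% of all windows) was matched in 11 of the 12 windows, in all 9 members. The TATA box (TATAAA, in 13.6%) was matched in 3 of the 12 windows (Prdx1, Prdx3 and Sod1). In Prdx3 that match was on the minus strand at -239 to -234 from the start site, against -29 to -24 in Prdx1 and -37 to -32 in Sod1. A match describes letters in the window and does not show that a factor binds there.

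Between genotypes, no member passed the test at either time. The largest differences were Gpx3, lower in the KO libraries at 0 h, and Gclm, higher in the KO libraries at 44 h. At 0 h, 0 of 10 members were called, against 0.0365% of all genes, and 1 had an unadjusted p under 0.05 in limma, against 9.69%. In 3 members (Gpx1, Gpx4 and Gclm) both KO libraries lay above both WT libraries, and in 3 (Sod2, Gpx3 and Prdx1) both lay below, against 27.3% and 19.1% of all genes. Gpx3 was 334 and 191 FPKM in KO, against 647 and 497 FPKM in WT. Both KO libraries were below both WT libraries, and the libraries of each genotype also stood well apart from each other. The KO level was 0.446 times the WT level on the log2(FPKM + 1) scale, a difference of -1.17 (SE 0.311, unadjusted p = 0.00705, limma adjusted p = 0.385). Leaving out each library in turn gave -1.57 to -0.76. The other 9 members lay between -0.19 (Gclc) and 0.19 (Gpx4), with limma adjusted p of 0.800 or more. The 10 oocyte markers summed to 3419 and 3075 FPKM in KO at 0 h, against 1197 and 2083 FPKM in WT. The 10 immune markers summed to 894 and 138 FPKM in KO, against 228 and 201 FPKM in WT, with none at 0. The 7 erythroid markers summed to 954 and 108 FPKM in KO, against 687 and 99.2 FPKM in WT. Their part in the Gpx3 values was not tested.

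At 44 h, 0 of 10 members were called, against 0.0219% of all genes, and 2 had an unadjusted p under 0.05 in limma, against 9.79%. Both KO libraries lay above both WT libraries in 1 member, Gclm, and below them in 3 (Cat, Prdx1 and Prdx3), against 23.9% and 15.1% of all genes. Gclm was 73.7 and 55.4 FPKM in KO, against 43.3 and 42.3 FPKM in WT, a difference of 0.57 (SE 0.168, unadjusted p = 0.0116, limma adjusted p = 0.494). The WT libraries were close together and the KO libraries were not. With replicate 2 alone in the KO group it was 0.36. With replicate 1 alone, the library with Cnot6 at the WT level, it was 0.77. A lone library is assumed to vary like those of the other groups, so neither value has a replicate check in KO. Prdx3 was 101.55 and 126 FPKM in KO, against 168 and 140.3 FPKM in WT, a difference of -0.43 (SE 0.180, unadjusted p = 0.0461, limma adjusted p = 0.506). It was -0.59 with KO replicate 1 alone and -0.28 with replicate 2 alone. Gpx3 lay closer to WT than at 0 h, at 542 and 372 FPKM in KO, against 583 and 513 FPKM in WT (-0.28, SE 0.311, limma adjusted p = 0.764). It was -0.013 with KO replicate 1 alone and -0.55 with replicate 2 alone. The erythroid markers summed to 40.2 and 189 FPKM in KO at 44 h, against 361 and 339 FPKM in WT, with 2 of 7 at 0 in KO replicate 1 and 1 of 7 at 0 in each WT library. The oocyte markers summed to 1559 and 956 FPKM in KO, against 643 and 625 FPKM in WT. The part of these cells in the Gclm and Prdx3 values was not tested.

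Averaged over both times, 0 members were called between genotypes, against 0.110% of all genes, and 2 had an unadjusted p under 0.05 in limma, against 17.0%. Gclm was the member in which all 4 KO libraries (53.0 to 73.7 FPKM) lay above all 4 WT libraries (42.3 to 52.0 FPKM), which held for 2.14% of all genes. In 0 members did all KO libraries lie below, which held for 1.86%. Its difference was 0.33 (SE 0.119, unadjusted p = 0.0275, limma adjusted p = 0.237). The difference was 0.43 without KO replicate 2 at 44 h and 0.23 without replicate 1. Gpx3 had -0.72 (SE 0.220, unadjusted p = 0.0130, limma adjusted p = 0.184). The exons of Gclm overlap those of Gm17494 on the opposite strand and of Gm6061, a processed pseudogene, on the same strand in GENCODE M21. How reads shared between such genes were assigned is not given in the sources used here.

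Whether the PMSG change differed between genotypes was tested as an interaction. Limma called 0 of 10 members, against 0.0438% of all genes, and 0 had an unadjusted p under 0.05, against 1.82%. Gpx3 had the largest value, with a PMSG difference of 0.83 in KO and -0.054 in WT, or 0.089 in WT after median-of-ratios scaling (0.88 apart as deposited, SE 0.440, unadjusted p = 0.0847). Without KO replicate 2 at 0 h these were 0.43 in KO and 0.48 apart, and without KO replicate 1 at 0 h they were 1.23 in KO and 1.28 apart. For Prdx3 the PMSG difference was 0.23 in KO and 0.73 in WT (-0.50 apart, SE 0.255, unadjusted p = 0.0908). Gclm had 0.25 in KO and -0.23 in WT (0.48 apart, SE 0.238, unadjusted p = 0.0838). The limma adjusted p was 1.00 for each of the 10. The other 7 lay between -0.25 (Sod1) and 0.44 (Gclc).

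Ratios taken within a library do not depend on the scaling between libraries. The secreted Gpx3 relative to Gpx1 was 1.37 and 1.34 in KO and 1.73 and 1.38 in WT at 44 h, against 1.05 and 0.636 in KO and 2.30 and 1.78 in WT at 0 h. All 4 KO libraries were below all 4 WT libraries, narrowly at 44 h and more widely at 0 h, and in KO the ratio was higher at 44 h while in WT it was lower. Gclm relative to Gclc was 8.22 and 10.7 in KO and 7.40 and 7.87 in WT at 44 h, against 9.88 and 8.39 in KO and 5.08 and 10.7 in WT at 0 h. The WT libraries at 0 h held both the lowest and the highest value of this ratio. Prdx1 relative to Prdx3 was between 7.56 and 10.3 in the 8 libraries, and neither time nor genotype separated it. Sod1 relative to Sod2 was 19.8 to 28.9, lowest in the WT libraries at 0 h (20.6 and 19.8). Gpx1 relative to Gpx4 was 0.449 and 0.411 in KO and 0.585 and 0.489 in WT at 44 h, against 0.554 and 0.494 in KO and 0.553 and 0.529 in WT at 0 h. The KO libraries at 44 h held the lowest pair of values. No test was made on these ratios.

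**Figure D4:**
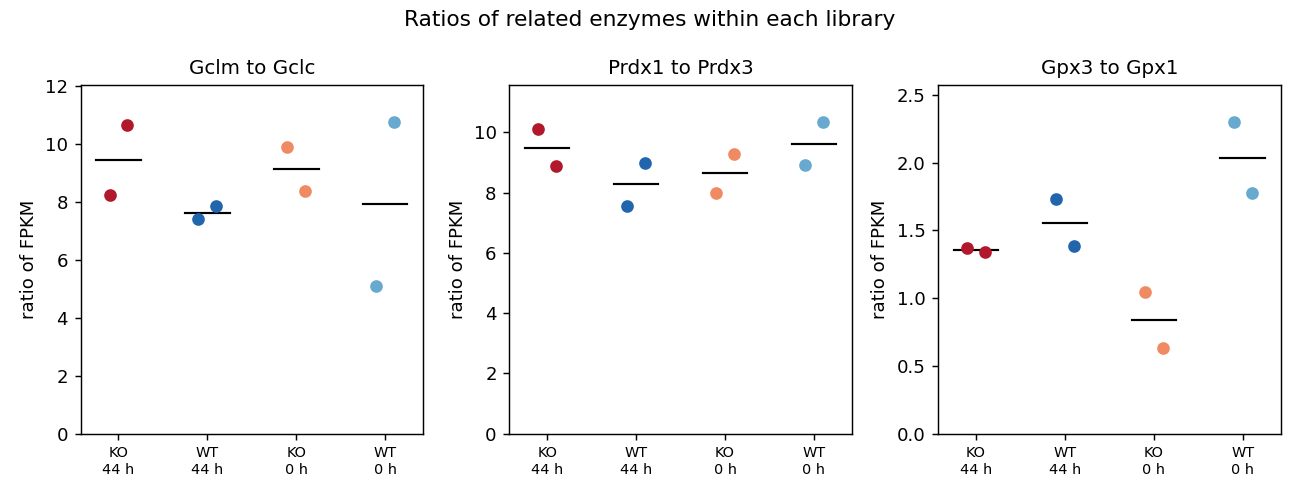
Ratios of FPKM within each library (y axis, from 0) for Gclm to Gclc, Prdx1 to Prdx3 and Gpx3 to Gpx1, with groups on the x axis from left to right KO 44 h, WT 44 h, KO 0 h and WT 0 h. Points are libraries (2 per group) and lines are group means. The Gpx3 to Gpx1 ratio is lowest in KO at 0 h (1.05 and 0.636) and highest in WT at 0 h (2.30 and 1.78), while the Prdx1 to Prdx3 ratio stays between 7.56 and 10.3.

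The members with the closest patterns over the 8 libraries were Sod2 and Prdx1, followed by Prdx1 and Prdx3. Likeness was the root-mean-square difference of log2(FPKM + 1) after each gene was centred on its own mean, 0.11 for Sod2 with Prdx1 and 0.14 for Prdx1 with Prdx3. Among 8008 genes with a mean of at least 5 FPKM, those most like Prdx1 were Brp44l (0.060), Chchd2 (0.061) and Gcsh (0.062). For Prdx3 they were Rnf181 (0.060), Acyp2 (0.078) and Abhd5 (0.091). For Sod1 they were Churc1 (0.080), Ino80c (0.085) and Trnau1ap (0.10). Sod2 had Mrpl51 (0.031), Psph (0.044) and Mdh2 (0.053), Cat had Tnip2 (0.053), Uba1 (0.063) and Shmt2 (0.069), and Gpx1 had Use1 (0.071), Cox7b (0.074) and Atp5e (0.075). For Gpx4 they were Tubgcp2 (0.066), Psmb4 (0.085) and Ptrh2 (0.088). Gclm had Zbtb8b (0.081), Nupl1 (0.087) and Vrk1 (0.091), and Gclc had Tbc1d23 (0.092), Cd59a (0.13) and Taf4b (0.15). Gpx3 stood farthest from any other gene, with Spon1 at 0.18, Cnot6 at 0.25 and Akr1c14 at 0.25. Genes that vary little lie close to each other by this measure, and Gpx3 varied most.

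The supporting genes of the same pathways were read in the averaged PMSG comparison, where background shares are those given above (5.06% higher, 12.4% lower). Beside the genes named by rule, every called gene of these lists is named, a choice made after their values were seen. Their calls rest on few libraries. Each fit with 1 library left out leaves a lone library in 1 group, so its counts are no replicate check of that group. With any one of WT replicate 1 or 2 at 44 h, KO replicate 1 or 2 at 0 h, or WT replicate 2 at 0 h left out, 0 genes of the 8 lists were called, and 28 to 84 of all genes. Without WT replicate 1 at 0 h, 9.03% of all genes were called, and 16.6% without KO replicate 2 at 44 h. That share was 27.9% when KO replicate 1 at 44 h, which stood apart, was left out, and the counts below for that fit are to be read against it. In the thioredoxin system, which recharges the peroxiredoxins, 3 of 18 genes tested were called higher and 2 lower. Srxn1, sulfiredoxin, which repairs overoxidised peroxiredoxins, was 4.10 and 6.62 FPKM in KO and 8.23 and 6.87 FPKM in WT at 44 h, against 1.33 and 1.61 FPKM in KO and 1.70 and 1.28 FPKM in WT at 0 h. Its difference was 1.56 (SE 0.180, limma adjusted p = 0.0125), with all 44 h libraries above all 0 h libraries. Txn1, thioredoxin itself, rose by 0.48 and Prdx5 by 0.47. Txnip, which binds and inhibits thioredoxin, fell by 1.23, and Glrx, a glutaredoxin, fell by 0.86. All 10 oocyte markers were called lower in this comparison too, and their part in the supporting genes of any list was not tested. Without KO replicate 1 at 44 h, limma called 6 of the 18, the 5 named and Prdx2.

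Around glutathione synthesis, 2 of 11 genes were called higher and 3 lower. Slc3a2, the heavy chain of amino acid transporters, rose by 0.90 (SE 0.10, limma adjusted p = 0.0116) and Chac2 by 0.57. Ggt1, which breaks down extracellular glutathione, fell by 0.90 (SE 0.163, limma adjusted p = 0.0222), Ggct by 0.78 and Slc7a11, the cystine transporter, by 0.63. Without KO replicate 1 at 44 h, which leaves a lone KO library of that time, Slc7a11 had -0.64 and did not keep its call. Of 22 glutathione S-transferases, which attach glutathione to other molecules, 9 were called higher and 2 lower. Without KO replicate 1 at 44 h, Gsto1 had 0.52 and did not keep its call. Gsta4 was 227 and 355 FPKM in KO and 256 and 379 FPKM in WT at 44 h, against 98.2 and 66.3 FPKM in KO and 112 and 62.2 FPKM in WT at 0 h (1.84, SE 0.263, limma adjusted p = 0.0151). Mgst2, a membrane-bound member of the class, rose by 1.52 (SE 0.334, limma adjusted p = 0.0291). Its difference was 2.49 in WT. In KO its libraries overlapped between times, at 29.3 and 91.8 FPKM at 44 h, against 41.6 and 29.1 FPKM at 0 h. The others called higher were Gstm7, Gsta2, Gstm1, Gstm2, Gstp1, Gstk1 and Gsto1, by 0.47 to 1.59, and Gstt1 and Gstt2 fell by 1.13 and 0.53.

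Of 24 NRF2 regulators and classical NRF2 targets, 2 were called higher and 2 lower. Without KO replicate 1 at 44 h there were 6 of the 24, among them 3 of these 4 and not Slc7a11. Those higher were Srxn1 and Taldo1, an enzyme of the pentose phosphate pathway (1.08, SE 0.136, limma adjusted p = 0.0133). Those lower were Mafk and Slc7a11. Nqo1 and Hmox1, widely used NRF2 targets named after their values were seen, had averaged differences of 0.23 (limma adjusted p = 0.479) and 0.18 (adjusted p = 0.608). Of 16 selenoproteins and factors of selenocysteine insertion, Selm (1.76, SE 0.248, limma adjusted p = 0.0151) and Sep15 (0.52, SE 0.113, adjusted p = 0.0293) were called higher and 0 lower (3 in all without KO replicate 1 at 44 h). Of 5 other SOD and GPX family genes, Gpx6 was called lower (-0.94, limma adjusted p = 0.0206) and 0 were called higher (2 in all without KO replicate 1 at 44 h). Sod3, the extracellular superoxide dismutase, had 0.55 in WT (limma adjusted p = 0.305). Of 7 NADPH oxidase genes and xanthine dehydrogenase, Ncf4 was called higher (0.66) and Noxo1 lower (-0.69). Of the fits with 1 library left out, only that without KO replicate 1 at 44 h kept either call. Of 7 genes of mitochondrial steroid synthesis, 5 were called higher and 0 lower (6 in all without KO replicate 1 at 44 h). Fdx1, which passes electrons to CYP11A1, had 2.78 (SE 0.358, limma adjusted p = 0.0138), Star 4.25 (SE 0.642, adjusted p = 0.0162) and Cyp11a1 5.69 (SE 0.860, adjusted p = 0.0162). Tspo and Hsd3b1, the other two called, had 1.76 and 1.64. The rises of Prdx1 and Prdx3, at 0.44 and 0.48, were thus far smaller than those of the steroid genes in the same libraries, on the log2(FPKM + 1) scale.

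Between genotypes averaged over both times, 0 genes of these 8 lists were called, against 0.110% of all genes. The smallest p in each list belonged to Ggt7 (-1.08, limma adjusted p = 0.153), Glrx (0.77, adjusted p = 0.151), Gpx6 (0.62, adjusted p = 0.146), Txnrd1 (-0.29, adjusted p = 0.193), Gsta2 (0.82, adjusted p = 0.143), Sephs2 (0.50, adjusted p = 0.118), Ncf4 (0.84, adjusted p = 0.0963) and Cyp11a1 (-2.16, adjusted p = 0.270). The Cyp11a1 value moved to -1.09 without KO replicate 1 at 44 h and to -3.23 without KO replicate 2. Each of these fits leaves a lone KO library of that time, so only differences are given. Without replicate 2 they were -1.41 for Ggt7, 0.96 for Glrx, 0.92 for Gsta2, 0.57 for Sephs2 and 0.74 for Ncf4. Without replicate 1 they were -0.75, 0.58, 0.72, 0.43 and 0.93 for the same genes. In Sephs2, which makes the selenium donor for selenocysteine, and in Ncf4, a NADPH oxidase subunit of phagocytes, all 4 KO libraries lay above all 4 WT libraries. Of all genes, 2.14% did so. In Txnrd1, cytosolic thioredoxin reductase, and in Keap1, the inhibitor of NRF2, all 4 KO libraries lay below. That held for 1.86% of all genes, and both pairs of genes were named for their small p. All 10 oocyte markers had a higher mean in KO in this comparison, with 0 called. Their part in the supporting genes was not tested.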

How the data were processed

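Granulosa cell RNA was profiled in 8 libraries. Per the labels' protocols, total RNA was extracted with Trizol, both a TruSeq and a TruePrep kit were used, and sequencing was paired-end on an Illumina HiSeq instrument. The authors deposited 1 table of FPKM values with a column per library, per the file headers. Per the submitters' processing notes, the build was mm9 and the tools included TopHat2 2.1.1 and Cufflinks 2.2.1, whose roles are not described. Annotation, strand setting and the treatment of shared reads were not given in the sources used here. No count model was used, because FPKM are not counts, and a listed 0 can be a failed estimate. Each library summed to between 675557 and 753216 FPKM. Coordinates are given only for RefSeq promoter windows of GRCm38.p6, another build than that of the table.

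Values were analysed as log2(FPKM + 1), a scale that understates changes of low genes. The 13688 of 23235 genes that reached 1 FPKM in 2 or more libraries were tested, all 10 enzymes among them. Limma 3.58.1 (R 4.3.3) fitted 4 group means to the 8 libraries, which left 4 residual degrees of freedom. Trended empirical Bayes, which adds to these from the spread of all genes, was used with two-sided tests. Benjamini-Hochberg adjustment covered every tested gene, separately in 7 comparisons, with a call at an adjusted p under 0.05. The fit was tested on simulated data. Averages over genotypes or times weight the groups equally.

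All 10 enzymes were tested in every comparison. Where values are not given for all 10, those named were picked by their values in that comparison. Of each supporting list, the 2 genes with the smallest p in WT (44 h against 0 h) and between genotypes (averaged over times) could be named, and, for each enzyme, the 3 genes with the most similar pattern. Other names are marked in the text as chosen after their values were seen. The enzymes and lists were chosen with earlier results of these data known. Alternatives covered the pseudocount, the filter, scaling, a replicate block, fits on the compared groups alone, robust empirical Bayes, library weights and leaving out each library. The counts and named values of the supporting lists with each library left out were added after seeing the data.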

Additional observations from a re-analysis of the deposited data

Results flagged for a closer look

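Gclm, the modifier subunit of glutamate-cysteine ligase, lay higher at 44 h than at 0 h in both KO libraries and lower in both WT libraries. It was 73.7 and 55.4 FPKM at 44 h, against 53.0 and 54.3 FPKM at 0 h, in KO, and 43.3 and 42.3 FPKM at 44 h, against 48.8 and 52.0 FPKM at 0 h, in WT. The PMSG difference in KO minus that in WT was 0.48 (log2, SE 0.238, unadjusted p = 0.0838, limma adjusted p = 1.00), so the difference itself did not pass the test. Leaving out the KO libraries of 44 h gave 0.28 (replicate 1 left out) and 0.68 (replicate 2 left out).

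Mgst2, a microsomal glutathione S-transferase, was lower in KO than in WT at 44 h and higher at 0 h, with every library on its side. At 44 h it was 29.3 and 91.8 FPKM in KO, against 119 and 139 FPKM in WT. At 0 h it was 41.6 and 29.1 FPKM in KO, against 21.3 and 23.0 FPKM in WT. The KO minus WT difference at 44 h minus that at 0 h was -1.92 (log2, SE 0.667, unadjusted p = 0.0233, limma adjusted p = 1.00), which did not pass. The libraries labelled KO at 44 h were far apart in this gene. The value was -1.11 without replicate 1, whose Cnot6 sat at the WT level, and -2.73 with replicate 1 as the lone KO library of that time.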

How the results depend on the processing

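With all libraries kept, 581 of 600 recomputed differences of the 10 enzymes kept their direction and their side of the threshold, 10 reversed and 9 lost or gained a call. With 1 library left out the counts were 502 of 560, 38 and 20. The Prdx1 and Prdx3 calls over PMSG held with pseudocount 0.1, FPKM of at least 5, median-of-ratios scaling, robust empirical Bayes and library weights. Median-of-ratios scaling added Sod1 to the calls (0.60, adjusted p = 0.0473), 3 in all. Called enzymes in that comparison fell to 0 with no filter, quantile normalization or the replicate block, and with library weights 2 were called in WT. The cause was not tested.

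Genes called were sensitive throughout. For 44 h against 0 h averaged, 2396 were called, 1188 with no filter and 781 with the replicate block. In KO, 19 were called, 10 with pseudocount 0.1, 6 with no filter, the replicate block or library weights, 9 with the KO groups alone and 35 with robust empirical Bayes. In WT, 11 were called, 30 with median-of-ratios scaling, 7 with quantile normalization or the replicate block, 945 with the WT groups alone, 34 with robust empirical Bayes and 1629 with library weights. For KO against WT at 0 h, 5 were called, 3 with no filter, 8 with robust empirical Bayes and 9 with library weights. At 44 h it was 3, and 6 with the 2 groups alone. Averaged over times it was 15, 6 with no filter and 26 with robust empirical Bayes. The members' median PMSG difference was 0.43 in WT, 0.44 in KO and 0.47 averaged with median-of-ratios scaling, and 0.20 in WT with quantile normalization. The replicate block rests on numbers alone: deviations of same-numbered libraries correlated at -0.113 to -0.0068, and it changed no other call of an enzyme.

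Leaving out 1 library at a time gave 28 to 3818 genes called over PMSG averaged, 3 to 1169 in KO, 4 to 1333 in WT, 6 to 78 for the interaction, 3 to 9 for KO against WT at 0 h, 2 to 801 at 44 h and 7 to 1341 averaged. Enzymes called ranged from 0 to 2 over PMSG averaged and in WT, and from 0 to 1 for KO against WT at 44 h and averaged. Members' medians were 0.16 to 0.40 in KO, 0.18 to 0.38 in WT, -0.18 to 0.023 for KO against WT at 44 h and -0.15 to 0.029 for the interaction.

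Reversals concerned differences that lay, with the main settings, between -0.25 (Gclc over PMSG in WT) and 0.25 (Gclc for KO against WT at 44 h). With median-of-ratios scaling they were Prdx3 (-0.014) for KO against WT at 0 h, Gpx1 (-0.048) and Gclc (-0.029) for KO against WT averaged, Gpx3 (0.089) over PMSG in WT, Cat (0.093) in KO and Gclc (0.097) averaged. With quantile normalization they were Prdx1 (0.010) for KO against WT at 0 h, Sod1 (0.089) and Gclc (-0.070) averaged, and Gclc (0.11) over PMSG averaged. With 1 library left out, ranges that crossed 0 over PMSG were, averaged, Cat (-0.047 to 0.13), Gclc (-0.25 to 0.18) and Gclm (-0.092 to 0.11), in KO, Cat (-0.24 to 0.12), Gclc (-0.15 to 0.53) and Gpx1 (-0.16 to 0.35), and in WT, Gclc (-0.68 to 0.18) and Gpx3 (-0.24 to 0.14). For KO against WT at 0 h they were Cat (-0.18 to 0.062), Gclc (-0.62 to 0.24) and Prdx3 (-0.056 to 0.18), at 44 h, Gclc (-0.093 to 0.59), Gpx1 (-0.35 to 0.16) and Sod1 (-0.35 to 0.060), and averaged, Gclc (-0.19 to 0.25), Gpx1 (-0.10 to 0.15) and Sod1 (-0.12 to 0.086). For the interaction they were Gpx1 (-0.49 to 0.020), Gpx4 (-0.17 to 0.23) and Sod2 (-0.045 to 0.17). With 2 libraries per group, small differences such as those of Gclc, at 4.84 to 9.60 FPKM, could not be resolved.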
